A study of Homo sapiens with 9 samples.

Results

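Heat shock proteins and J-domain chaperones were examined as 1 gene family group in OVCAR3 ovarian cancer cells with lowered GPX3. The group holds 78 of the 58735 genes in the deposited table. Its members are the protein-coding genes named HSPA, HSPB, HSPD, HSPE, HSPH or HSP90A followed by a digit or letter, those named DNAJA, DNAJB or DNAJC followed by a digit, and HSF1, HSF2 and BAG3. The endoplasmic reticulum genes HSPA5, HSP90B1 and DNAJB9 were left out by that rule. HSPBP1 and HSPBAP1 match the name pattern but encode binding partners and not chaperones, and HSPA14 has 2 rows (ENSG00000187522 and ENSG00000284024) that share part of their exons. Of the 78 members, 65 had enough counts to be tested among 17023 genes.

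The study used 9 RNA sequencing libraries of OVCAR3, an established human cell line from ovarian cancer, grown in RPMI medium with serum and insulin and sequenced after 72 h in culture, to study what GPX3 does in ovarian cancer cells. Its 3 groups of 3 libraries carried a scramble short hairpin RNA (genotype labelled WT), hairpin 76 against GPX3 or hairpin 78 against GPX3 (both labelled as GPX3 knock-down). The names used for them are scramble, sh76 and sh78. Such a hairpin is processed by the cell into a small guide that lowers matching mRNAs, and GPX3 encodes a secreted glutathione peroxidase. The labels name no vector, selection or number of transductions, and do not say whether the 3 replicates came from separate cultures, so p-values measure the spread between these libraries, which may be technical.

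HSP70 proteins bind unfolded stretches of other proteins and release them in a cycle driven by ATP. J-domain proteins (the DNAJ genes) bring clients to HSP70 and start its ATP hydrolysis, while exchange factors such as the HSP110 proteins and BAG3 release the nucleotide. HSP90 acts later on nearly folded clients, small HSPs hold aggregating proteins in solution, and the HSPD1 and HSPE1 chaperonin folds proteins inside mitochondria. Part of this network, led by HSPA1A, HSPA1B, DNAJB1 and HSPH1, is induced within hours of heat or protein damage by the transcription factor HSF1. Other members, such as HSPA8 and HSP90AB1, are made at high levels without stress, and cancer cells often hold high levels of both kinds.

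HSF1 binds inverted repeats of the unit GAA, called heat shock elements, so promoter letters are shown for 4 of the members that hold such a match and differed between replicate numbers: HSPA1A, HSPA1B and HSPA8, highest in replicate 1 by the fit, and HSPB1, lowest there. RefSeq promoters (GRCh38.p14, 250 bases before the transcription start) matched 67 member names, and 10 names had none. The pair motifs searched were GAANNTTC and TTCNNGAA, each its own reverse complement, and the triple motif was GAANNTTCNNGAA on both strands, which contains both pairs. A pair was found in 13 of the 67 promoters (19.4%) and in 4067 of all 35116 promoters of that length (11.6%). The triple was found in 3 of the 67 (4.48%, in HSPA8, HSPA6 and DNAJB6) and in 155 of all promoters (0.441%). Capitals below mark the matched bases. The HSPA1A stretch lies at chr6:31815293-31815463 on the plus strand and the HSPA1B stretch at chr6:31827488-31827734 on the plus strand. These encode near-identical proteins, and their 250-base promoters matched at 94.4% of 249 aligned positions. The HSPA8 sites, each shown in 30 bases, lie at chr11:123062346-123062375 and chr11:123062171-123062200 on the minus strand. The HSPB1 stretch lies at chr7:76302423-76302543 on the plus strand. Bases that GENCODE 29 places in an exon were not printed, apart from those of the HSPA8 sites.
HSPA1A: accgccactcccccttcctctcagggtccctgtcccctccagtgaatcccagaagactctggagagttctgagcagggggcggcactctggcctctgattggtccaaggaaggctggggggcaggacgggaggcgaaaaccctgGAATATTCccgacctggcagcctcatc
HSPA1B: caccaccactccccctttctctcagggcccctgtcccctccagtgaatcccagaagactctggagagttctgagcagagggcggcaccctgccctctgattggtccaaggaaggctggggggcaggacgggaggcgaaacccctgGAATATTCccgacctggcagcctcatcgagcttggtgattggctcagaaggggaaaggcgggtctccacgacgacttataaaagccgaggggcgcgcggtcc
HSPA8 distal: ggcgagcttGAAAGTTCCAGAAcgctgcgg
HSPA8 proximal: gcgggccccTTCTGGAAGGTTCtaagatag
HSPB1: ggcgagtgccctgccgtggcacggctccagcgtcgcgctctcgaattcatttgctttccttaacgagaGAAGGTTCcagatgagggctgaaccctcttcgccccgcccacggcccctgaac
HSPA1A and HSPA1B share the same pair, which starts 106 and 105 bases before the start. HSPA8 holds a triple near each end of its window, and HSPB1 holds a pair 182 bases before the start. These distances are to RefSeq starts, which differ from the GENCODE 29 gene coordinates given below. GENCODE 29 places 79, 3, 250 and 129 bases of the windows of HSPA1A, HSPA1B, HSPA8 and HSPB1 in exons. By its coordinates both HSPA8 sites lie inside the gene. No pair stood in the window of DNAJC6, HSPA13, HSPA9, HSP90AA1, HSPH1 or DNAJB1, which says only that these letters are not in these 250 bases. Only the first start listed for each name was searched, so promoters at other starts of a gene, such as HSP90AA1 or DNAJB1, were not covered. A match is a description of the letters, and binding was not measured.

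The libraries held 14652965 to 21327562 counts. GPX3 itself was at 173, 109 and 117 CPM with scramble, 56.8, 55.2 and 55.5 CPM with sh76 and 35.3, 28.4 and 28.3 CPM with sh78 in replicates 1, 2 and 3, where CPM is the count relative to the library total after TMM scaling. All 6 hairpin libraries lay below the 3 scramble libraries, at log2 fold changes of −1.25 for sh76 and −2.12 for sh78. The 8 ovarian carcinoma markers listed for the check (PAX8, WT1, MUC16, EPCAM, KRT8, KRT18, KRT7 and MSLN) were all tested, at 58.4 CPM (WT1) to 5852 CPM (KRT8) in a library. Of these, PAX8 fell with sh76 (−0.28), and EPCAM, KRT8 and KRT18 fell with sh78 (−0.33, −0.52 and −0.46), beside 2.16% and 2.56% of all genes called lower. Between the hairpins 1 of the 8 was called by group, higher with sh78, beside 3.7% of all genes called. With the replicate number in the fit 2 of the 8 were higher and 5 lower with sh76, beside 9.63% and 10.7% of all genes. With sh78 that fit gave 1 higher and 3 lower, beside 9.79% and 10.1%. Their part in the member results was not tested. The 12 markers of fibroblasts, leukocytes and endothelium summed to between 37.8 and 65.6 CPM in a library, most of it COL1A1, and 1 to 4 of them were at 0 counts. In bulk RNA, fewer cells of a type and less RNA per cell cannot be told apart. Libraries with the same replicate number deviated from their group means together, so each comparison below is given by group and, where the call changes, with the replicate number also in the fit.

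Members took 0.818% to 0.997% of the counts of a library. Per length, HSPB1 (411 ± 77.6 FPKM with scramble, mean ± SD, n = 3), HSP90AB1 (402 ± 16.1 FPKM) and HSP90AA1 (401 ± 34.3 FPKM) were the most abundant, and their order is within their spread. HSPA8, the constitutive cytosolic HSP70, followed at 156 ± 42.0 FPKM and HSPD1 at 128 ± 6.23 FPKM. FPKM, as deposited, is the count relative to both gene length and library total. HSP90AA1, HSP90AB1, HSPA8, HSPD1 and HSPE1 have processed pseudogenes, and DNAJB1 and HSP90AA1 share 5.75% and 3.75% of their exon bases with TECR and WDR20, so reads may be split or lost there. With scramble, 5 members had a mean of at least 100 FPKM, 22 had 10 to under 100, 29 had 1 to under 10 and 22 had less than 1. The other end held the 13 members below the count filter, with 0 to 10 counts in each library. Among these, HSPA6, a strictly heat-induced HSP70, had at most 10 counts and DNAJA4 at most 9. HSPB8, a small HSP that works with BAG3, had 0 counts in all 9 libraries, which allows up to 0.141 to 0.205 CPM (3 counts, counting error only). The readthrough genes HSPE1-MOB4, DNAJC25-GNG10 and HSPB2-C11orf52 also had 0, but nearly all of their exon bases lie in exons of the genes they join, so their 0 sets no limit on their level. The remaining 7 were DNAJB7, DNAJB8, DNAJC5B, DNAJC5G, HSPB2, HSPB3 and HSPB9.

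Hairpin effects called without the replicate number in the fit were few and mostly small. Against scramble, sh76 changed 3 of the 65 tested members (4.615%), beside 3.58% of all genes tested. HSP90AA1 rose, beside 1.43% of all genes called higher, and DNAJC6 and HSPA13 fell, beside 2.16% called lower. With sh78 also 3 members changed, beside 4.41% of all genes. All of them, DNAJC6, HSPA13 and HSPA9, fell, beside 2.56% of all genes called lower and 1.85% called higher. Called means an adjusted p below 0.05 in the quasi-likelihood test of edgeR, with Benjamini-Hochberg adjustment over 17023 genes. These shares are near those of all genes. The median log2 fold change over the 65 members was 0.01 with sh76 and −0.01 with sh78, where all genes gave 0.01 for both, and 52 and 50 members lay within 0.2 of 0. The 95% interval of the log2 fold change stayed inside ±0.5 for 39 members with sh76 and 37 with sh78, and inside ±1 for 56 with each. The SE comes from the test and so draws on the spread of other genes. The factor that turns it into an interval uses the 6 residual degrees of freedom alone, so an interval can be wider than its p-value implies. Both comparisons share the scramble libraries, so they are not independent of each other.

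**Figure D1:**
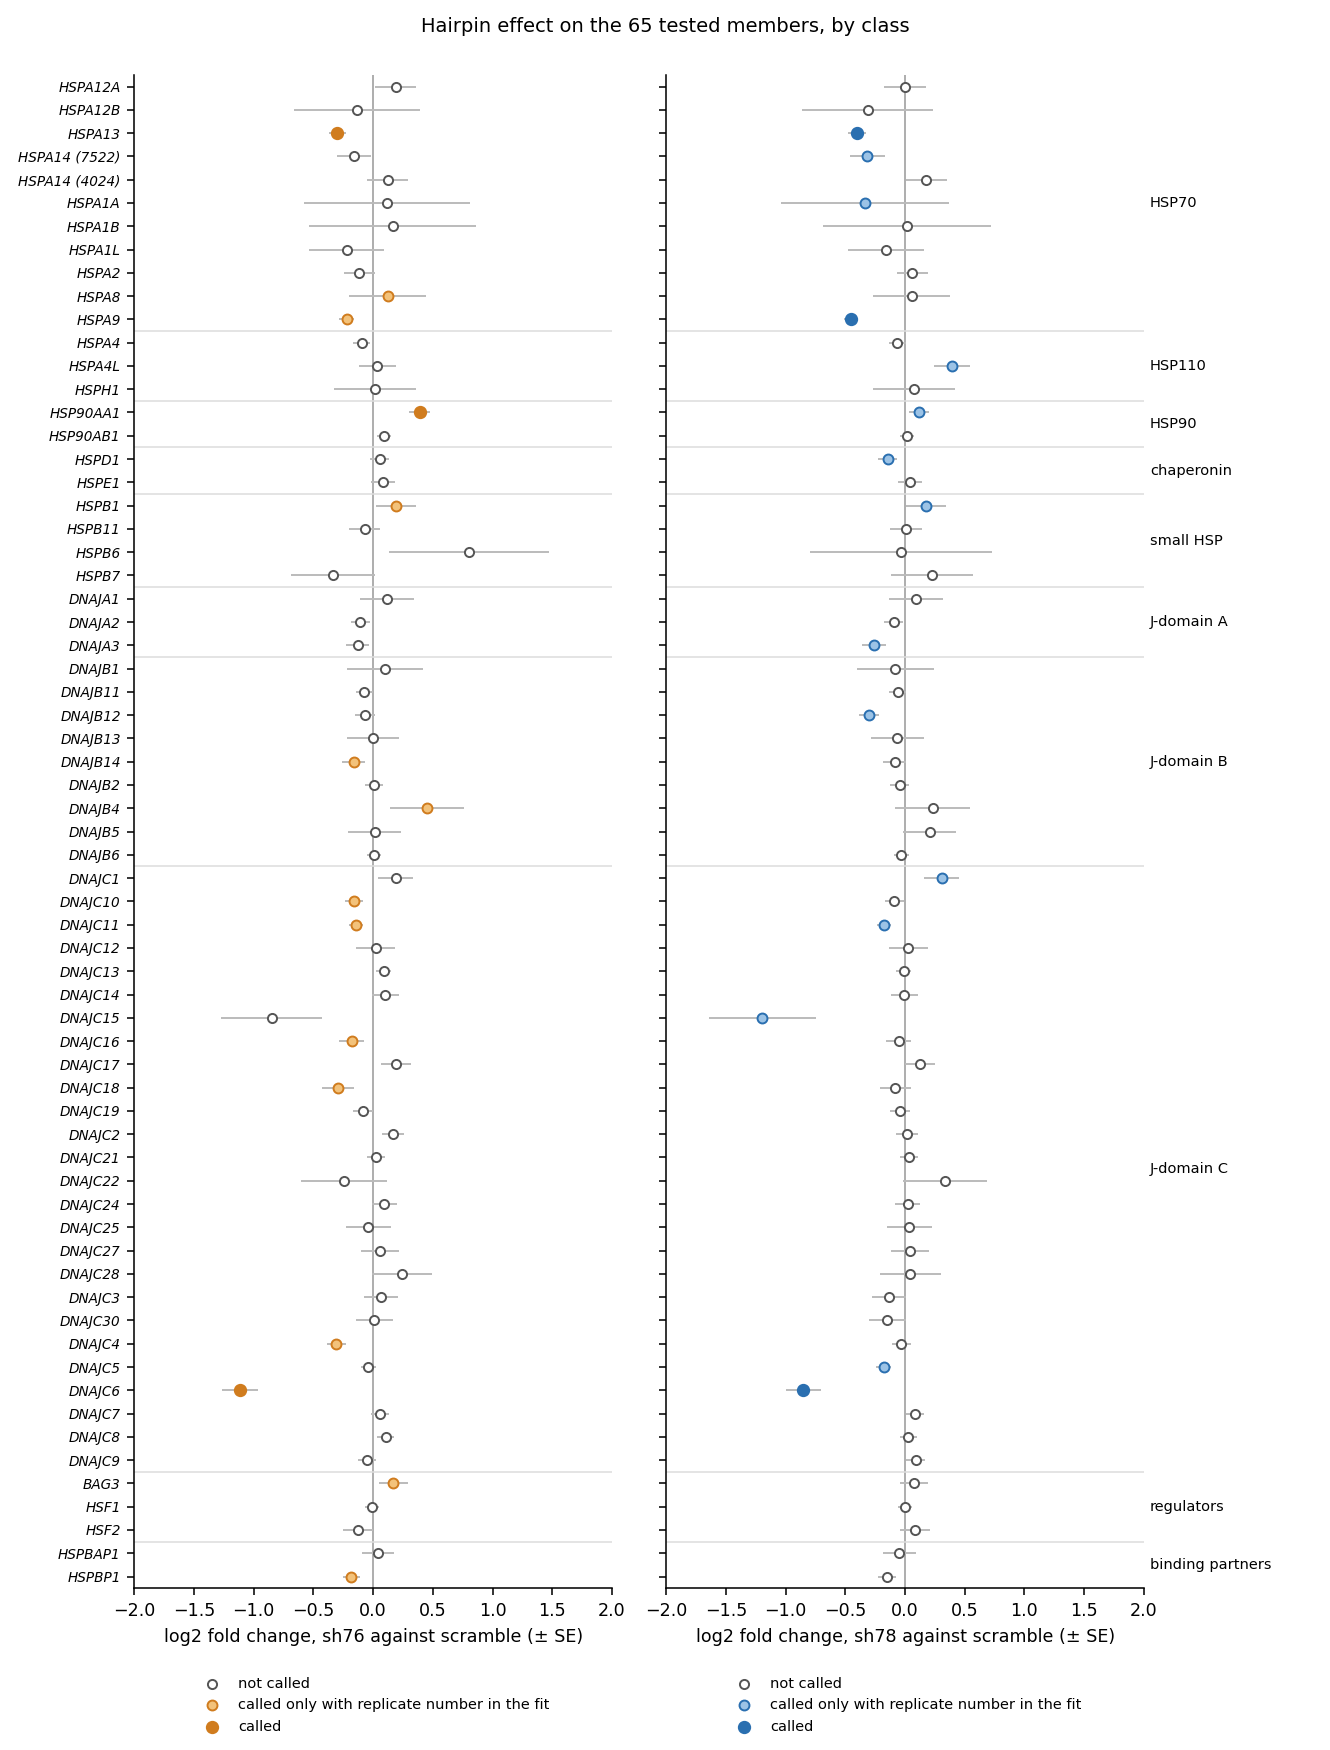
Log2 fold change (x axis, ± SE) of each of the 65 tested members with sh76 (left) and sh78 (right) against scramble, grouped by class; filled points were called, pale points were called only with the replicate number in the fit, and open points were not called. DNAJC6 lies far left in both panels and HSP90AA1 right of 0 with sh76, while most members sit within 0.2 of 0.

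Adding the replicate number to the fit raised the counts for members and for all genes. It called 15 members with sh76 (5 higher, 10 lower), beside 20.4% of all genes (9.63% higher, 10.7% lower). For sh78 it also called 15 (4 higher, 11 lower), beside 19.9% (9.79% higher, 10.1% lower). The 15 calls were 23.08% of the tested members with each hairpin. Higher calls made up 7.692% with sh76 and 6.154% with sh78, and lower calls 15.38% and 16.92%. DNAJC6, HSPA13 and HSP90AA1 with sh76, and DNAJC6, HSPA13 and HSPA9 with sh78, were called in both fits.

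DNAJC6, auxilin 1, is the J-domain protein that recruits HSPA8 to strip clathrin from coated vesicles and is best known from neurons. The gene (ENSG00000116675, chromosome 1, 65248219 to 65415869, plus strand, GRCh38) was measured at 14.6, 14.2 and 16.8 CPM with scramble, 7.83, 7.56 and 5.68 CPM with sh76 and 8.89, 7.57 and 8.77 CPM with sh78. Every hairpin library lay below every scramble library, and the hairpin groups overlapped each other. Relative to scramble, edgeR gave a log2 fold change of −1.12 with sh76 (SE 0.15, adjusted p = 0.00116), the largest fall among the members called there, and −0.85 (SE 0.15, adjusted p = 0.00467) with sh78. It was thus at 0.461 and 0.555 times the scramble level. Between the hairpins it differed by 0.27 (95% interval −0.11 to 0.65, adjusted p = 0.44). DNAJC6 was a low gene, with 110 to 292 counts in a library, and its level per length was 2.17 ± 0.208, 1.00 ± 0.165 and 1.2 ± 0.103 FPKM with scramble, sh76 and sh78. HSPA8, its HSP70 partner, gave 0.12 and 0.06 and was called by group with neither hairpin.

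HSPA13, also called STCH, is a microsomal HSP70 relative that lacks the substrate-binding domain of the family. The gene (ENSG00000155304, chromosome 21, 14371115 to 14383484, minus strand) had 93.7, 81.1 and 88.9 CPM with scramble, 74.3, 66.8 and 73.3 CPM with sh76 and 66.0, 64.7 and 68.8 CPM with sh78. No hairpin library reached the lowest scramble library. The log2 fold change was −0.30 (SE 0.07, adjusted p = 0.0392) with sh76 and −0.40 (SE 0.07, adjusted p = 0.00665) with sh78. The sh76 call ended without scramble replicate 1 or 3, any single sh76 replicate or sh78 replicate 2 (adjusted p = 0.0514 to 0.187), with limma on log2(FPKM + 1) (0.0557) or log2(FPKM + 0.1) (0.0582) and with only the 2 groups compared (0.0705), and the log2 fold change was −0.36 to −0.25 over all libraries left out in turn. Its adjusted p was 2.57e-05 with the replicate number in the fit.

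HSPA9, mortalin, is the HSP70 of the mitochondrial matrix, where it pulls proteins through the inner membrane and folds them. The gene (ENSG00000113013, chromosome 5, 138553756 to 138575724, minus strand) was at 323, 325 and 342 CPM with scramble, 275, 275 and 299 CPM with sh76 and 229, 245 and 249.7 CPM with sh78. The groups did not overlap, with scramble highest, sh76 between and sh78 lowest. The log2 fold change was −0.45 (SE 0.06, adjusted p = 0.000743) with sh78. With sh76 it was −0.22 (SE 0.06), with adjusted p = 0.0571 by group alone and 6.42e-05 with the replicate number in the fit. Between the hairpins it was −0.23 (SE 0.06), with adjusted p = 0.051 and 5.2e-05 in those fits. DESeq2 also called HSPA9 with sh76 (adjusted p = 0.0291) and between the hairpins (0.0269). Leaving out sh78 replicate 1 gave an sh76 call as well (edgeR adjusted p = 0.047).

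**Figure D2:**
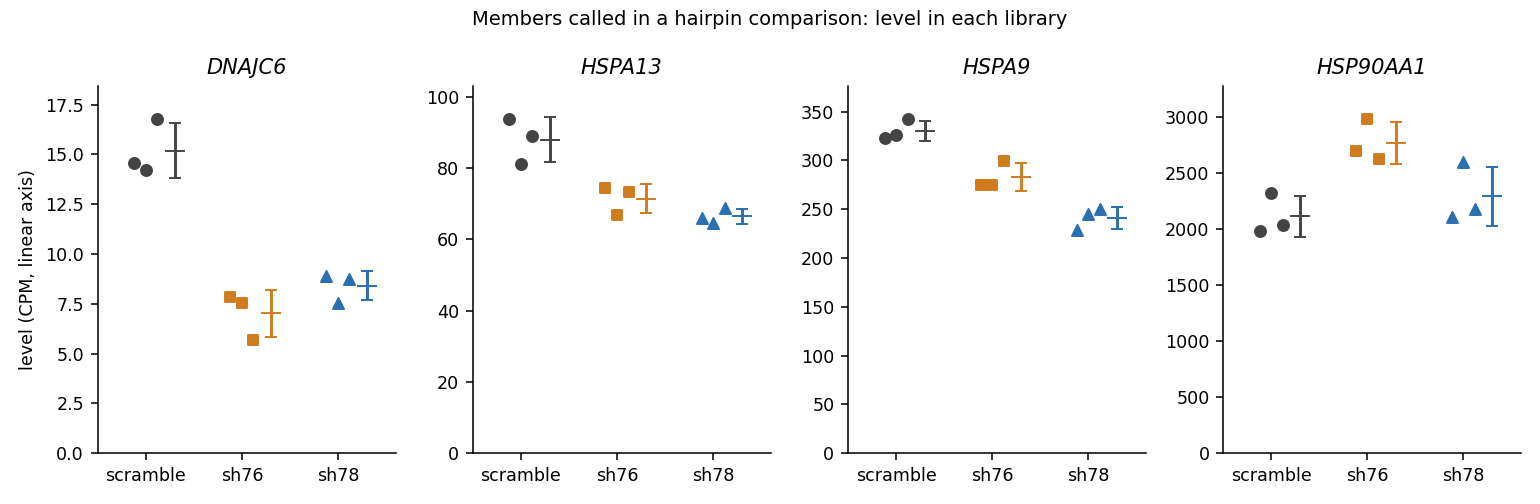
Level in CPM (y axis, from 0) of the 4 members called in a hairpin comparison, for each of the 9 libraries; points are libraries in the order of replicates 1 to 3, and bars show mean ± SD (n = 3) per group. DNAJC6, HSPA13 and HSPA9 are lower in all 6 hairpin libraries, and HSP90AA1 is highest in the 3 sh76 libraries.

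Of the 10 members placed in mitochondria, all tested, edgeR called 0 with sh76, beside 3.58% of all genes, and 1, HSPA9, fell with sh78, beside 2.56% called lower. At an unadjusted p under 0.05 it counted 8 of all 65 members with sh76 and 10 with sh78, beside 17.4% and 17.5% of all genes. The median log2 fold change of the 10 was −0.11 and −0.15, and that of all genes 0.01 for both. With the replicate number in the fit, 3 were lower with sh76 (HSPA9, DNAJC11 and DNAJC4) and 5 with sh78 (HSPA9, DNAJC11, DNAJA3, HSPD1 and DNAJC15), beside 10.7% and 10.1% of all genes, and none was higher. DNAJA3, the matrix J-domain partner of HSPA9, was at 103, 84.3 and 85.8 CPM with scramble, 91.0, 77.5 and 80.7 CPM with sh76 and 85.9, 70.8 and 71.0 CPM with sh78. The highest sh78 library overlapped the scramble range, yet each sh78 library was below the scramble library of its number. Its log2 fold change with sh78 was −0.26 (adjusted p = 0.183, and 0.000123 with the replicate number). DNAJC11, which belongs to the assembly that shapes inner membrane folds, gave −0.15 and −0.17 (adjusted p = 0.0203 and 0.00528 with the replicate number, 0.2 and 0.118 without). Its exons overlap those of THAP3 on the other strand over 27.9% of their length, and the libraries carry no strand.

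The chaperonin pair had no call by group. HSPD1, the HSP60 barrel (ENSG00000144381, chromosome 2, 197486581 to 197516737, minus strand), had 528, 579.5 and 537 CPM with scramble, 567, 597 and 545 CPM with sh76 and 471, 568 and 449.6 CPM with sh78, and HSPE1, its HSP10 lid, had 41.2, 43.8 and 41.9 CPM with scramble, 48.2, 44.0 and 42.0 CPM with sh76 and 43.3, 50.1 and 37.4 CPM with sh78. The 3 groups overlapped for both genes. For HSPD1 the log2 fold change was 0.05 with sh76 and −0.14 with sh78 (adjusted p = 0.794 and 0.39, the latter 0.00907 with the replicate number). For HSPE1 it was 0.08 and 0.04 (adjusted p = 0.746 and 0.889). Both genes share a start region on opposite strands, with 14.2% of the exon bases of HSPE1 inside exons of HSPD1. DNAJC19, which works at the import motor with HSPA9, gave −0.09 and −0.04 (95% intervals −0.29 to 0.12 and −0.25 to 0.16). DNAJC4, which shares 10.6% of its exon bases with NUDT22, was at 36.4, 33.9 and 35.8 CPM with scramble, 28.4, 28.3 and 28.8 CPM with sh76 and 36.2, 32.5 and 34.9 CPM with sh78. All 3 sh76 libraries lay below the other 6, at a log2 fold change of −0.31 (adjusted p = 0.0526, and 0.00099 with the replicate number), against −0.03 with sh78 (adjusted p = 0.902). DNAJC15, an inner membrane J-domain protein often silenced in ovarian cancer, had only 6 to 33 counts in a library. It was at 1.86, 1.94 and 1.09 CPM with scramble, 1.36, 0.727 and 0.668 CPM with sh76 and 1.19, 0.413 and 0.455 CPM with sh78, and its log2 fold change was −0.85 and −1.19 (SE 0.42 and 0.45), of which sh78 was called with the replicate number in the fit (adjusted p = 0.0118) and not without (0.167).

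HSP90AA1, the stress-responsive cytosolic HSP90, rose with sh76. The gene (ENSG00000080824, chromosome 14, 102080738 to 102139699, minus strand) was at 1982, 2326 and 2034 CPM with scramble, 2699, 2979 and 2629 CPM with sh76 and 2106, 2595 and 2180.5 CPM with sh78. All 3 sh76 libraries lay above the other 6, and sh78 overlapped scramble. The log2 fold change was 0.39 (SE 0.09, adjusted p = 0.023) with sh76, or 1.31-fold, and 0.12 (SE 0.09, adjusted p = 0.55) with sh78. Leaving out scramble replicate 1, scramble replicate 3 or sh76 replicate 2 ended the sh76 call (adjusted p = 0.0686, 0.102 and 0.124), and limma on log2(FPKM + 1) gave 0.0584. With the replicate number in the fit the adjusted p was 1.71e-10 for sh76 and 0.0281 for sh78. The direct test between the hairpins gave −0.27 (adjusted p = 0.107, and 5.02e-07 with the replicate number). Its partner HSP90AB1, the constitutive HSP90, was at 1155, 1214 and 1241 CPM with scramble, 1251, 1284 and 1311 CPM with sh76 and 1169, 1303 and 1188 CPM with sh78. The log2 fold changes of HSP90AB1 were 0.09 and 0.02 (95% intervals −0.05 to 0.24 and −0.12 to 0.16). HSP90AA1 alone took 0.199%, 0.233% and 0.2% of the counts with scramble and 0.275%, 0.3% and 0.258% with sh76. Without it, the other members together took 0.687%, 0.681% and 0.625% with scramble and 0.722%, 0.695% and 0.641% with sh76.

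Between the hairpins, sh78 against sh76, edgeR called 0 of the 65 members, beside 3.7% of all genes. At an unadjusted p under 0.05 there were 7, beside 16.3%. DESeq2 called 1 (HSPA9), beside 5.06%, and edgeR without the count filter called 2 (HSPA9 and HSP90AA1), beside 3.12%. Adding the replicate number, 9 were called, beside 18.3% of all genes. Of these, 7 were lower with sh78 (beside 8.62%): HSPA1A, HSP90AA1, DNAJB12, HSPA9, HSPD1, DNAJB1 and DNAJC5, at −0.44 to −0.14. DNAJC4 and HSPA4L were higher with sh78 (beside 9.69%), at 0.28 and 0.36. Leaving out sh78 replicate 2 gave 2 calls without the replicate number (HSP90AA1, adjusted p = 0.0379, and HSPD1, 0.041), beside 2.14% of all genes, and leaving out scramble replicate 1 gave 1 (HSPA9, 0.0462), beside 4.45%.

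The largest differences called among members lay between replicate numbers, and those of HSPA1A and HSPA1B had replicate 1 highest in all 3 groups. A range between replicate numbers is the highest less the lowest of 3. It thus tends to be larger than a difference between 2 groups. HSPA1A, the main heat-inducible cytosolic HSP70 (ENSG00000204389, chromosome 6, 31815464 to 31817946, plus strand), was at 108, 63.1 and 36.2 CPM with scramble, 134, 54.2 and 38.0 CPM with sh76 and 88.9, 49.8 and 24.8 CPM with sh78. In each group replicate 1 was highest and replicate 3 lowest. HSPA1B (ENSG00000204388, chromosome 6, 31827735 to 31830255, plus strand), a second copy of the same protein, was at 88.8, 36.6 and 29.7 CPM with scramble, 103, 35.2 and 35.8 CPM with sh76 and 88.6, 33.8 and 32.9 CPM with sh78, again highest in replicate 1 of each group. The range between replicate numbers, with group in the fit, was 1.74 on the log2 scale for HSPA1A (3.33-fold, edgeR adjusted p = 7.15e-07) and 1.51 for HSPA1B (2.85-fold, adjusted p = 2.08e-24). These were the 2 of 65 members (3.077%) called with a range of at least 1, beside 1.84% of all genes. DNAJC15, at 6 to 33 counts, had a range of 1.04 and was not called (adjusted p = 0.0764). This comparison was added after the values were seen. The labels give no meaning for the numbers.

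Because the coding sequences of the pair differ at 4 of 1923 positions, reads from one copy can be assigned to the other or left uncounted, and the counting settings for such reads are not given in the sources used here. Summed over both genes the level was 196.9, 99.8 and 66.0 CPM with scramble, 237, 89.5 and 73.8 CPM with sh76, and 177, 83.6 and 57.7 CPM with sh78. HSPA1A made up 43.0% to 63.3% of the sum. The sum was called by group with neither hairpin (log2 fold change 0.14, SE 0.69, adjusted p = 0.951 with sh76 and −0.18, SE 0.69, adjusted p = 0.936 with sh78). The sum, with the replicate number in the fit, was lower with sh78, at −0.20 against scramble (adjusted p = 0.0187) and −0.30 against sh76 (adjusted p = 0.000614). For HSPA1A alone those values were −0.37 (adjusted p = 0.0222) and −0.44 (0.00934), and HSPA1B was not called (0.984 and 0.103).

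In all, 23 of the 65 members (35.38%) differed between replicate numbers, beside 28.8% of all genes. Of these, 16 were highest in replicate 1, 6 in replicate 2 and 1 in replicate 3. Lowest were 4 in replicate 1, 9 in replicate 2 and 10 in replicate 3. Those highest in replicate 2 by the fit included HSPD1, HSPA4L and HSPA4 (ranges 0.19, 0.38 and 0.15, edgeR adjusted p = 0.0009, 0.0055 and 0.013). HSPA4 was lowest in replicate 1. The 4905 genes so called among all tested were highest in replicate 1, 2 and 3 in 2011, 1220 and 1674 cases. Over the 65 members the median range was 0.19, and over all genes 0.23. By the fit, all 8 called members with a range of at least 0.5 were highest in replicate 1: HSPA1A, HSPA1B, DNAJB4, HSPH1, HSPA8, DNAJB1, DNAJA1 and DNAJB5. In the sh78 libraries themselves, HSPA8 and HSPH1 were highest in replicate 2. The share of all genes with such a range and order was not counted.

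HSPA8 (ENSG00000109971, chromosome 11, 123057489 to 123063230, minus strand) was at 913, 847 and 524 CPM with scramble, 979, 922 and 584 CPM with sh76 and 897, 936 and 540.0 CPM with sh78. Replicate 3 was lowest in every group, and the groups overlapped throughout. Its range was 0.76 (adjusted p = 3.63e-19), while its log2 fold change was 0.12 with sh76 and 0.06 with sh78 (adjusted p = 0.9 and 0.957, the former 0.0216 with the replicate number). HSPH1, an HSP110 exchange factor induced by heat, had 96.1, 88.0 and 51.2 CPM with scramble, 94.6, 86.5 and 56.8 CPM with sh76 and 95.7, 98.8 and 52.7 CPM with sh78. It too was lowest in replicate 3 of every group (range 0.83, adjusted p = 9.08e-16), with log2 fold changes of 0.02 and 0.07.

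DNAJB1, the HSP40 that HSF1 induces with HSPA1A, was at 141, 82.0 and 84.9 CPM with scramble, 146, 90.9 and 93.2 CPM with sh76 and 131, 80.2 and 78.5 CPM with sh78. Replicate 1 stood above both others in each group (range 0.72, adjusted p = 5.57e-17). DNAJA1, a class A partner of HSPA8, had 315, 269 and 203 CPM with scramble, 348, 288 and 218 CPM with sh76 and 317, 301 and 220.3 CPM with sh78, with replicate 1 highest and replicate 3 lowest in each group (range 0.61, adjusted p = 5.4e-14). DNAJB4 was a low gene at 12.2, 7.33 and 5.397 CPM with scramble, 14.6, 10.2 and 9.26 CPM with sh76 and 12.8, 9.01 and 7.15 CPM with sh78. Its range was 0.87 (adjusted p = 1.36e-06), and within each number both hairpins stood above scramble. DNAJB4, with the replicate number in the fit, was higher with sh76 by 0.48 (adjusted p = 0.00351, and 0.507 without), and sh78 was not called (0.218). DNAJA2 and DNAJB6, cytosolic J-domain proteins of the same classes, had ranges of 0.13 and 0.05 (adjusted p = 0.193 and 0.679).

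**Figure D3:**
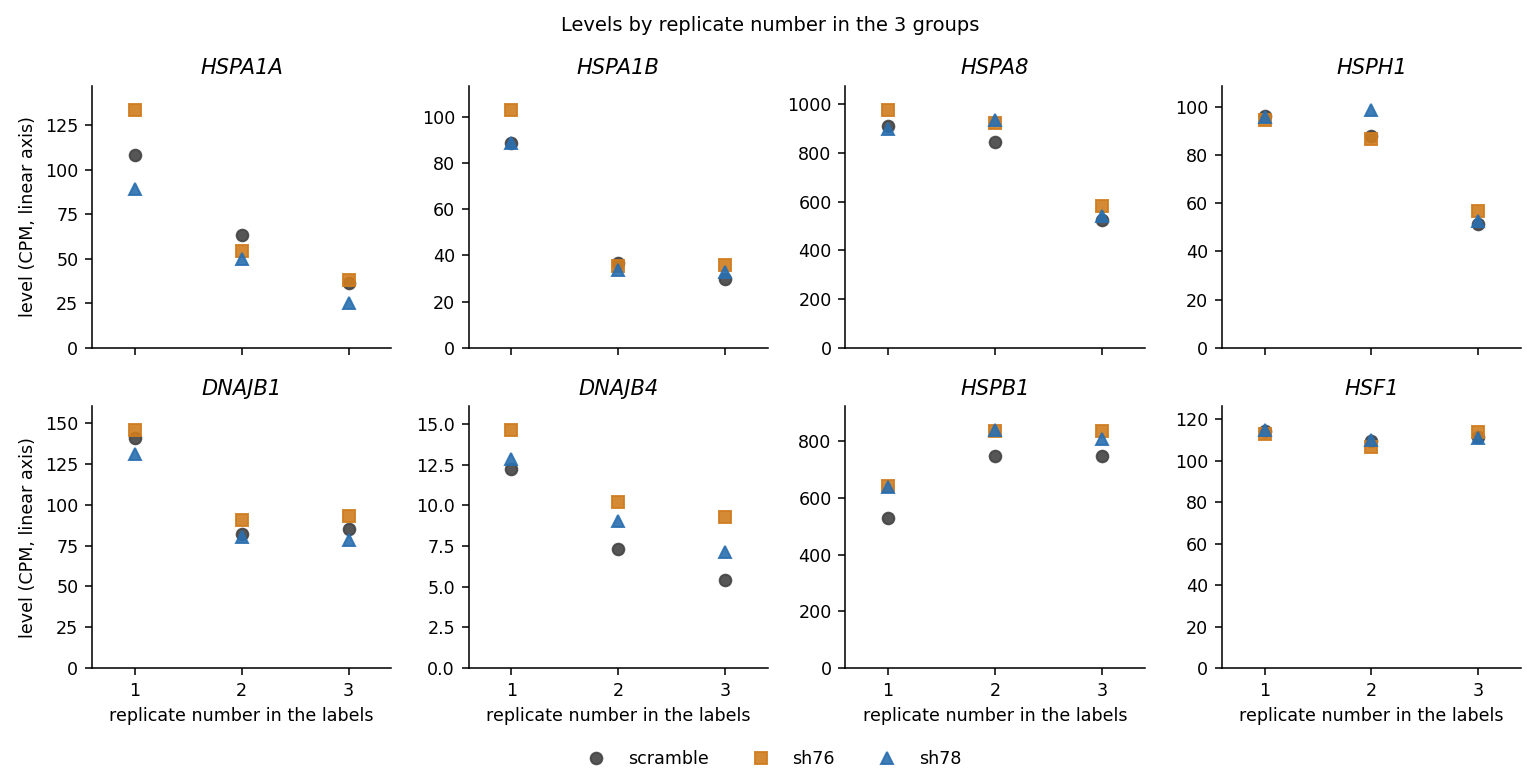
Level in CPM (y axis, from 0) against the replicate number in the labels (x axis, a name with no order) for 8 members; each point is 1 library, with symbols for scramble, sh76 and sh78. HSPA1A, HSPA1B, DNAJB1 and DNAJB4 are highest in replicate 1 in all 3 groups, HSPA8 and HSPH1 are lowest in replicate 3, HSPB1 is lowest in replicate 1, and HSF1 varies little.

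HSPB1, the small HSP known as HSP27, ran the other way. The gene (ENSG00000106211, chromosome 7, 76302544 to 76304295, plus strand) was at 529.7, 749 and 747 CPM with scramble, 641, 836 and 836 CPM with sh76 and 638, 839.7 and 808 CPM with sh78. Replicate 1 was lowest in every group (range 0.43, adjusted p = 1.58e-11). Within each number both hairpins stood above scramble, so all 6 same-numbered pairs were higher. These pairs share the scramble libraries and are not independent. Of the 65 tested members, 6 were higher in all 6 pairs, DNAJA1 among them, and 11 were lower in all 6. The share over all genes was not counted. The log2 fold change was 0.19 with sh76 and 0.17 with sh78, with adjusted p = 0.619 and 0.671 by group alone and 0.000261 and 0.000702 with the replicate number. HSPB11, a part of the ciliary transport complex, gave −0.07 and 0.01 (adjusted p = 0.843 and 0.988). The other small HSPs tested, HSPB6 and HSPB7, were below 3 CPM in every library.

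HSF1 itself was at 114, 109.7 and 111 CPM with scramble, 113, 107 and 114 CPM with sh76 and 115, 109.8 and 111 CPM with sh78. Its 9 values lay close together, with 95% intervals of the log2 fold change of −0.15 to 0.14 and −0.15 to 0.15 and a range between replicate numbers of 0.07 (adjusted p = 0.483). mRNA level does not report HSF1 activity, which is set after translation. HSF2, a relative that forms mixed trimers with HSF1, was at 19.5, 17.0 and 20.7 CPM with scramble, 17.1, 14.97 and 20.2 CPM with sh76 and 20.5, 19.5 and 20.5 CPM with sh78 (log2 fold changes −0.13 and 0.08, adjusted p = 0.65 and 0.81). BAG3, an HSF1 target that links HSP70 to autophagy, was at 76.0, 57.4 and 65.9 CPM with scramble, 85.5, 64.7 and 74.0 CPM with sh76 and 78.1, 64.3 and 67.3 CPM with sh78. Replicate 1 was highest and replicate 2 lowest in each group (range 0.36, adjusted p = 4.26e-06). Within each number both hairpins exceeded scramble. BAG3, with the replicate number in the fit, was higher with sh76 by 0.17 (adjusted p = 0.0173, and 0.511 without), and sh78 was not called (0.366).

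**Figure D4:**
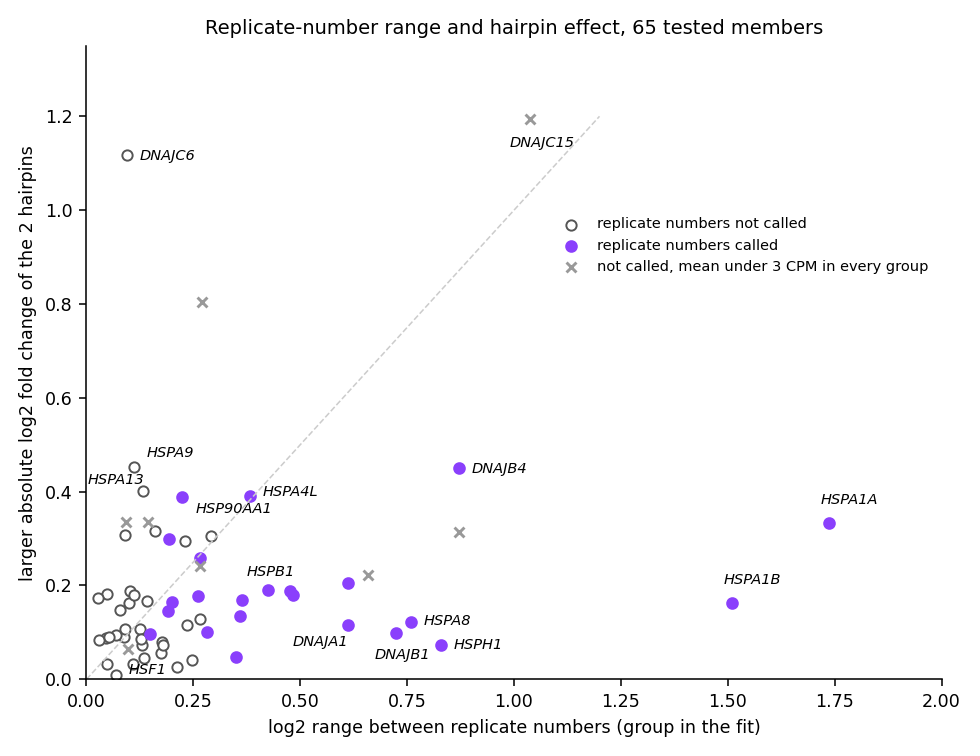
Range between replicate numbers with group in the fit (x axis, log2) against the larger absolute log2 fold change of the 2 hairpins (y axis) for the 65 tested members; filled points were called between replicate numbers, crosses were not called and had a mean under 3 CPM in every group, and the dashed line marks equal size. HSPA1A and HSPA1B lie far right of the line at ranges of 1.74 and 1.51, while DNAJC6, HSPA9 and HSPA13 lie above it at ranges of 0.09, 0.11 and 0.13. The axes are unlike measures, since a range is the highest less the lowest of 3 numbers and a fold change compares 2 groups.

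Other values moved with the replicate number. The mitochondrially encoded share of counts was 4.24% to 4.64% in the 3 libraries numbered 1, 4.62% to 4.89% in those numbered 2 and 4.67% to 5.16% in those numbered 3. By group it was 4.24% to 4.67% with scramble, 4.48% to 4.91% with sh76 and 4.64% to 5.16% with sh78, and in all 6 same-numbered pairs the hairpin library was higher. Of the 12 markers of other cell types, the summed level was 37.8 to 48.5, 47.5 to 65.6 and 52.9 to 61.8 CPM, with 1 to 3, 1 to 4 and 2 to 3 of them at 0. By group the sum was 37.8 to 52.9, 40.6 to 65.6 and 48.5 to 61.8 CPM, and COL1A1 and CD14 were higher in the hairpin library of all 6 same-numbered pairs. With the replicate number in the fit COL1A1 was called higher with both hairpins. CD3E had counts in 1 library alone, and DCN and LUM were at 0 in all scramble libraries. Their part in the member results was not tested. Among the 57 tested member names with a promoter, the 9 with a pair motif had a median range of 0.66 (0.05 to 1.74), and the 48 without had 0.16 (0.03 to 0.87), a description with no test. HSPA1L, the middle of the 9, had few counts, as had DNAJC15 and HSPB6, and the pair of HSPA1L is the same genomic site as that of HSPA1A. A pair stood in 5 of the 22 called between replicate numbers (22.7%) and in 4 of the 35 not called (11.4%). Of all promoters 11.6% held a pair, and this split was not made over all genes. In the windows searched, HSPH1, DNAJB1 and BAG3 were called without a pair, and HSPB1, with a pair, was lowest in replicate 1. A link between pair and replicate number was not tested.

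The HSP70 class had 11 of 12 members tested, of which 1 fell with sh76 (HSPA13), beside 2.16% of all genes, and 2 with sh78 (HSPA13 and HSPA9), beside 2.56%. Adding the replicate number gave 1 higher and 2 lower with sh76 and 4 lower with sh78, beside 9.63%, 10.7% and 10.1%. HSPA2, a testis-rich HSP70, was at 17.7, 25.5 and 23.3 CPM with scramble, 20.9, 22.4 and 18.1 CPM with sh76 and 21.9, 23.2 and 24.4 CPM with sh78 (log2 fold changes −0.12 and 0.06, adjusted p = 0.717 and 0.875). HSPA1L, a testis copy beside HSPA1A, had 20 to 56 counts in a library and was not called. The rows of HSPA14, a ribosome-bound HSP70, gave −0.16 and −0.32 for ENSG00000187522 and 0.12 and 0.18 for ENSG00000284024. Only the sh78 value of the former was called, with the replicate number in the fit (adjusted p = 0.0487, against 0.277 without), and the rows share 460 exon bases. In the HSP110 class HSPA4 gave −0.10 and −0.06 (adjusted p = 0.541 and 0.729). HSPA4L, a heat-induced relative of HSPA4, was at 16.4, 15.5 and 12.7 CPM with scramble, 16.5, 17.5 and 11.8 CPM with sh76 and 19.3, 21.6 and 17.7 CPM with sh78. Each sh78 library lay above all others, at 0.39 against scramble (adjusted p = 0.19, and 0.00296 with the replicate number).

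In the endoplasmic reticulum class, with 11 members all tested, 1 fell with each hairpin (HSPA13), beside 2.16% and 2.56% of all genes. With the replicate number in the fit, 5 were lower with sh76 (HSPA13, DNAJC18, DNAJC16, DNAJC10 and DNAJB14), and with sh78 HSPA13 and DNAJB12 were lower and DNAJC1 higher, beside 10.7%, 10.1% and 9.79% of all genes. DNAJB11, the soluble partner of HSPA5, was at 104, 95.6 and 90.3 CPM with scramble, 95.1, 90.6 and 89.8 CPM with sh76 and 93.3, 97.7 and 86.4 CPM with sh78. DNAJC3, which inhibits eIF2α kinases, was at 33.9, 27.6 and 24.2 CPM with scramble, 34.2, 25.8 and 29.6 CPM with sh76 and 29.7, 22.9 and 25.1 CPM with sh78, and DNAJC10, a disulfide reductase, at 170.4, 169 and 156 CPM with scramble, 133, 158 and 151 CPM with sh76 and 146, 152 and 168 CPM with sh78. Their log2 fold changes with sh76 were −0.07, 0.06 and −0.16 and with sh78 −0.06, −0.14 and −0.09, of which DNAJC10 with sh76 alone was called, and only with the replicate number (adjusted p = 0.0321). The genes kept out by the rule gave small values too. HSPA5 (BiP) had 0.01 and −0.08, HSP90B1 (GRP94) had 0.03 and −0.10, and DNAJB9 had 0.07 and 0.04, with no adjusted p against scramble under 0.437 by group. HSP90B1 was called between the hairpins with the replicate number in the fit, at −0.12 (adjusted p = 0.0193). DNAJB12, a membrane J-domain protein of protein quality control, was at 83.9, 72.8 and 84.3 CPM with scramble, 78.0, 71.0 and 80.8 CPM with sh76 and 63.0, 62.3 and 70.5 CPM with sh78. The sh78 libraries lay below all others, at −0.30 (adjusted p = 0.059, and 3.72e-05 with the replicate number).

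Class C J-domain proteins share only the J domain and have varied tasks. Of 29 members 26 were tested, and DNAJC6 alone was called by group, with each hairpin, beside 3.58% and 4.41% of all genes. Adding the replicate number gave 6 lower with sh76, and 1 higher and 4 lower with sh78, beside 10.7%, 9.79% and 10.1%. DNAJC5, the cysteine string protein of secretory vesicles, was at 236, 213 and 235 CPM with scramble, 231, 215 and 219.6 CPM with sh76 and 203, 191 and 211 CPM with sh78. All 3 sh78 libraries lay below the other 6, at −0.18 against scramble (adjusted p = 0.142, and 0.00177 with the replicate number). DNAJC7, a shuttle between HSP70 and HSP90, gave 0.06 and 0.08 (95% intervals −0.13 to 0.25 and −0.10 to 0.27). DNAJB2, a neuronal J-domain protein that binds ubiquitin, gave 0.01 and −0.05 (95% intervals −0.18 to 0.20 and −0.23 to 0.14), and the 2 class A and B members DNAJA2 and DNAJB6 gave −0.11 and −0.10, and 0.01 and −0.03. HSPBP1, an HSP70 exchange factor, was below scramble in every hairpin library, at −0.18 and −0.15 (adjusted p = 0.209 and 0.307, and 0.0228 and 0.0641 with the replicate number). DNAJC4, DNAJC11, DNAJC16, DNAJC18, DNAJC1, DNAJB5, DNAJB12, DNAJB14, HSPA4L and HSPBP1 were named after their values were seen.

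Partner genes of the network, from lists whose members (HSPBP1 and HSPA4L) were left out, were described by counts. The lists overlap: CHORDC1, STIP1, AHSA1 and FKBP4 stand among both the HSP90 co-chaperones and the HSF1-linked genes. Counts by list therefore do not add up to those of all the genes. Of 45 genes (TRiC chaperonin, prefoldin, HSP90 and HSP70 co-chaperones, mitochondrial chaperones and proteases, and heat-inducible genes tied to HSF1), all tested, 2 fell with sh76 and 2 with sh78, beside 2.16% and 2.56% of all genes, and edgeR by group called none higher. Adding the replicate number gave 4 higher and 9 lower with sh76 and 2 higher and 10 lower with sh78, beside 9.63%, 10.7%, 9.79% and 10.1%. The 8 TRiC subunits, 6 prefoldin subunits, 12 HSP90 co-chaperones and 7 HSP70 co-chaperones had no call by group with either hairpin. Adding the replicate number, sh76 gave 2 lower TRiC subunits, 2 higher and 3 lower HSP90 co-chaperones and 2 higher and 1 lower HSP70 co-chaperones. For sh78 it gave 1 higher and 1 lower TRiC subunit, 2 lower prefoldin subunits, 1 higher and 1 lower HSP90 co-chaperone and 1 lower HSP70 co-chaperone. Of the 8 mitochondrial genes, LONP1, the matrix protease, fell with both hairpins. LONP1 was at 175, 166 and 168 CPM with scramble, 130.0, 133 and 139 CPM with sh76 and 133, 134 and 136 CPM with sh78, and no hairpin library reached the scramble range (−0.34 and −0.34, adjusted p = 0.00417 and 0.0038). GRPEL1, the exchange factor of HSPA9, was at 29.3, 29.98 and 31.3 CPM with scramble, 31.2, 28.2 and 30.5 CPM with sh76 and 25.8, 23.0 and 21.2 CPM with sh78 and fell with sh78 (−0.37, adjusted p = 0.0447), with no call for sh76 (−0.01, adjusted p = 0.968). SERPINH1, the collagen chaperone HSP47, fell with sh76 (−0.27, adjusted p = 0.0191) and gave −0.13 with sh78 (adjusted p = 0.252). The 8 mitochondrial genes gave, in that fit with the replicate number, 1 lower with sh76 and 3 with sh78, and the 8 HSF1-linked genes 4 and 3, with none higher. Between replicate numbers 14 of the 45 were called, beside 28.8% of all genes. CHORDC1, a heat-inducible HSP90 co-chaperone, had the largest range of those called, 2.12-fold (adjusted p = 2.51e-12), and was highest in replicate 1 and lowest in replicate 3 of each group, at 35.9, 25.2 and 16.0 CPM with scramble, 31.2, 18.9 and 15.2 CPM with sh76 and 37.4, 30.7 and 17.9 CPM with sh78. STIP1, which joins HSP70 to HSP90, had 0.23 (adjusted p = 0.000258) and was highest in replicate 2 with scramble and sh78.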

How the data were processed

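Poly-A RNA from 9 OVCAR3 libraries (3 per group) was sequenced without strand, per the labels' protocols. The authors deposited whole-number counts per gene and FPKM values. HISAT2 2.0.5, featureCounts 1.5.0-p3 and the build hg38 are named in the submitters' processing notes. Counting settings for shared or multiply matching reads are not given in the sources used here. All 78 members had the name, start and end of GENCODE 29, which gave coordinates.

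Counts were tested with edgeR 4.0.16 (R 4.3.3): filterByExpr (minimum count 10, minimum total 15), TMM factors, estimateDisp, robust glmQLFit and glmQLFTest, with 1 coefficient per group over all 9 libraries and Benjamini-Hochberg adjustment over 17023 genes. CPM are counts relative to TMM-scaled library totals. FPKM as deposited were used for levels per length and in limma 3.58.1. DESeq2 1.42.0, RLE factors, library totals, other filters, 2 pseudocounts (1 and 0.1), only the groups compared and each library left out were alternatives. The edgeR procedure was tested on simulated data. The share of false calls was below the 0.05 aimed at for sh76 against scramble and above it for the test between replicate numbers. Calls between replicate numbers may thus hold more false ones than the adjusted p states. The simulated sh76 comparison held no difference between replicate numbers, unlike these libraries. Hairpin comparisons with the replicate number in the fit were not simulated, so their share of false calls is not known.

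Replicate numbers come from the labels. Deviations from group means correlated at r = 0.19 to 0.46 in the 9 same-numbered pairs and −0.36 to 0.08 in the 18 others, so the numbers pair the samples (every same-numbered pair above 0.1), and a fit with the number as a block (residual degrees of freedom 4, against 6 without) was run. An F test of the number in that fit was added after the values were seen. Replicates of a group differed by a chi-square of 4.90 to 11.1 per degree of freedom, so none is a duplicate.

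Named genes are members called in a group comparison, a list of inducible, constitutive and organelle members named whatever their values, and the genes the rule excludes. Members and lists were chosen with earlier results of these data known, so no list has a test of its own.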

Additional observations from a re-analysis of the deposited data

How the results depend on the processing

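Each count of members called was recomputed under other settings. With the replicate number as a block, edgeR called 15 members with sh76, 15 with sh78 and 9 between the hairpins (3, 3 and 0 by group), and DESeq2 with that block, chosen after seeing the data, called 8, 12 and 9. DESeq2 without it called 5 with sh76 and 1 between the hairpins. A filter of 1 CPM in 3 libraries gave 5 and 1, no filter gave 5 with sh78 and 2 between the hairpins, and library totals without TMM gave 1 between the hairpins. Leaving out 1 library in turn gave 1 to 4 members with sh76 (1 without scramble replicate 1, scramble replicate 3 or sh76 replicate 2), 3 to 4 with sh78, 0 to 2 between the hairpins and 21 to 24 between replicate numbers. The block changed calls of single members as given above and no other call by group was lost with it. Over the 35 member rows chosen for naming (105 results, 2095 values), 1926 values kept their direction and side of the threshold, 50 gained a call and 14 lost one. The other 105 values, in 46 results, had another sign, and 0 of these were called in either fit. Leaving out 1 library in turn gave, with sh76, −0.22 to 0.21 for HSPH1, −0.037 to 0.25 for HSPA14 row ENSG00000284024, −0.58 to 0.59 for HSPA1A, −0.54 to 0.80 for HSPA1B, −0.091 to 0.32 for HSPA8 and −0.054 to 0.28 for DNAJA1. The range was also, with sh76, −0.16 to 0.39 for DNAJB1, −0.020 to 0.046 for DNAJB2, −0.018 to 0.022 for DNAJB6, −0.047 to 0.20 for DNAJC3 and −0.029 to 0.020 for HSF1. Leaving out 1 library in turn gave, with sh78, −0.070 to 0.14 for HSPE1, −0.16 to 0.31 for HSPH1, −0.89 to 0.14 for HSPA1A, −0.63 to 0.65 for HSPA1B, −0.63 to 0.063 for HSPA1L and −0.078 to 0.17 for HSPA2. The range was also, with sh78, −0.16 to 0.27 for HSPA8, −0.033 to 0.046 for HSP90AB1, −0.063 to 0.24 for DNAJA1, −0.37 to 0.21 for DNAJB1, −0.082 to 0.0053 for DNAJB2 and −0.040 to 0.61 for DNAJB4. Further ranges with sh78 were −0.25 to 0.0030 for DNAJC3, −0.023 to 0.18 for BAG3, −0.024 to 0.014 for HSF1 and −0.11 to 0.079 for HSPB11. Leaving out 1 library in turn gave, between the hairpins, −0.15 to 0.063 for HSPE1, −0.024 to 0.073 for HSPA4, −0.13 to 0.30 for HSPH1, −0.038 to 0.19 for HSPA14 row ENSG00000284024, −1.01 to 0.25 for HSPA1A and −0.79 to 0.55 for HSPA1B. The range was also, between the hairpins, −0.41 to 0.29 for HSPA1L, −0.26 to 0.15 for HSPA8, −0.18 to 0.15 for DNAJA1, −0.0075 to 0.043 for DNAJA2, −0.47 to 0.073 for DNAJB1 and −0.029 to 0.060 for DNAJB11. Further ranges between the hairpins were −0.092 to 0.0013 for DNAJB2, −1.04 to 0.017 for DNAJC15, −0.019 to 0.083 for DNAJC19, −0.0028 to 0.071 for DNAJC7, −0.19 to 0.013 for BAG3 and −0.021 to 0.028 for HSF1. Further ranges between the hairpins were −0.13 to 0.10 for HSPB1. DNAJB6 with sh76 was at −0.000393 (limma on log2(FPKM + 1)), −0.000459 (limma on log2(FPKM + 0.1)). HSF1 with sh76 was at 0.00122 (library totals, no TMM). HSF1 with sh78 was at 0.000564 (DESeq2), 0.00026 (RLE factors), 0.00262 (library totals, no TMM), 0.000624 (no low-count filter), 3.49e-05 (DESeq2 with replicate block). HSPA1L between the hairpins was at −0.000759 (limma on log2(FPKM + 1)), −0.0366 (limma on log2(FPKM + 0.1)), −0.0203 (DESeq2 with replicate block). Depth limits the lowest members tested: DNAJC15 had 6 to 33 counts in a library, HSPB6 1 to 13 and HSPA12B 2 to 16. The causes of these differences were not tested.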
